A study of Mus musculus with 4 samples.

Results

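Translation initiation factors are the proteins that bring the small ribosomal subunit and the initiator tRNA to an mRNA, find its start codon and join the large subunit. The 53 genes described here were taken by symbol, as every row of the gene table whose name begins with Eif1, Eif2, Eif3, Eif4, Eif5 or Eif6, with Eif4e1b and Eif4enif1 left out, and they are 53 of the 20171 genes of the table. They hold 770 of the 68012 isoforms of the isoform table, and 49 of the 53 genes have at least 1 isoform there (Eif2ak2, Eif4g3, Eif4ebp2 and Eif4ebp3 have none). The cells came from 6- to 8-week-old C57BL/6J females and, after the oocyte stage, matings with DBA/2NCrl males (labelled strain DBA/2J x C57BL/6J). No genotype or drug was varied. All females had received gonadotropins, and time was counted from the hCG injection.

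MII oocytes were taken at 20 h, zygotes at 22 to 24 h, early 2-cell embryos (E2C) at 30 to 32 h, late 2-cell embryos (L2C) at 46 to 48 h, 4-cell embryos at 54 to 56 h, 8-cell embryos at 68 to 70 h, 16-cell and 32-cell embryos at 78 to 80 h and early blastocysts at 88 to 90 h. Mouse embryonic stem cells (mESC) of the male line E14 Tg2A, a cultured pluripotent line, were also included. Full-length cDNA of single cells, with molecular identifiers (UMIs), was sequenced on PacBio runs. The series holds 4 runs, and the paper lists fewer batches for the cells used here. Cell names give the embryo, which served as replicate, with 10 oocytes and 9 zygotes. There were 5 embryos of E2C and 6 of L2C, 5 of the 4-cell stage, and 4 each of the 8-cell and 16-cell stages. The 22 32-cell, 13 blastocyst and 5 mESC cells name no embryo and are given by their range and median over cells, with no test.

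Initiation runs through a fixed order of factors. The eIF2 complex carries the initiator tRNA, and eIF2B reloads eIF2 with GTP. The large eIF3 complex binds the small subunit and helps it meet the mRNA, while eIF4E, eIF4G and the helicase eIF4A form eIF4F on the cap. eIF1, eIF1A and eIF5 take part in start codon choice, eIF5B in subunit joining. The eIF2 alpha kinases and the 4E-binding proteins hold initiation back. In the mouse the first large wave of embryonic transcription falls in the late 2-cell stage, and before it the embryo lives mostly on mRNA stored in the oocyte.

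Levels are copies per 100,000 UMIs of a cell, taken as the mean of an embryo's cells and given as mean ± SD over embryos. A UMI counts a molecule, so levels of different genes were compared without dividing by length. A level is a share of a cell's UMIs, so it can rise or fall as other transcripts change. Absolute amounts per cell or embryo were not compared. Depth ran from 166731 to 389775 gene UMIs per oocyte or zygote and from 17971 to 589926 per embryo, and from 4985 to 389775 per cell. The shallowest embryos were L2C 1, where 1 UMI is worth 5.56 copies, and 4-cell 2 with 25411 UMIs. Of the 43 oocytes, zygotes and embryos, 36 correlated best with their own stage over all tested genes. Oocyte 6 was closer to the zygotes, zygotes 7 and 8 to the oocytes, L2C 6 to the 4-cell stage, and 8-cell 1, 16-cell 1 and 16-cell 2 to each other's stage. Of 5 oocyte genes, Gdf9 (697 copies in oocytes, 42.9 in E2C), H1foo (1593 and 109) and Mos (78.1 and 2.72) were highest in oocytes, while Bmp15 was highest in E2C (44.2 and 167) and Zp3 in L2C (25.0 copies, against 9.91 in oocytes). Of 5 late 2-cell genes, 4 were higher in E2C than in L2C. Zscan4c, Zscan4d, Zscan4f and Usp17lc were at most 5.82 copies on average at any stage, and Tcstv1 was at 12.8, 32.5 and 29.7 copies in oocytes, zygotes and E2C and at 1.26 in L2C. Of the cumulus cell markers, 5 of the 6 found in the table were at or under 0.195 copies on average at every stage, and Amhr2 reached 21.1 copies in the 4-cell stage. The sequencing run of a column is not given by its name, so stage and run cannot be told apart.

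Taken as a sum over the 53 genes, initiation factor transcripts held 1047 ± 43.4 copies in oocytes (n = 10), 1083 ± 56.6 in zygotes (n = 9) and 1042 ± 112 in E2C (n = 5). The sum was 1608 ± 285 copies in L2C (n = 6), 1965 ± 248 in the 4-cell stage (n = 5), 2402 ± 265 in the 8-cell stage (n = 4) and 2470 ± 319 in the 16-cell stage (n = 4). The lowest L2C embryo (1213 copies) lay above the highest E2C embryo (1188), while the spans of oocytes, zygotes and E2C overlapped. These sums are shares, and median gene UMIs were 195670 per oocyte, 168154 per E2C embryo and 115692 per L2C embryo. Of the 53 genes, 26 had their lowest mean in oocytes, and 39 had their highest mean in the 4-cell, 8-cell or 16-cell stage. The most abundant were Eif1, with stage means between 201 and 344 copies, Eif5a, between 113 and 357, and Eif2s2, between 51.9 and 474.

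**Figure D1:**
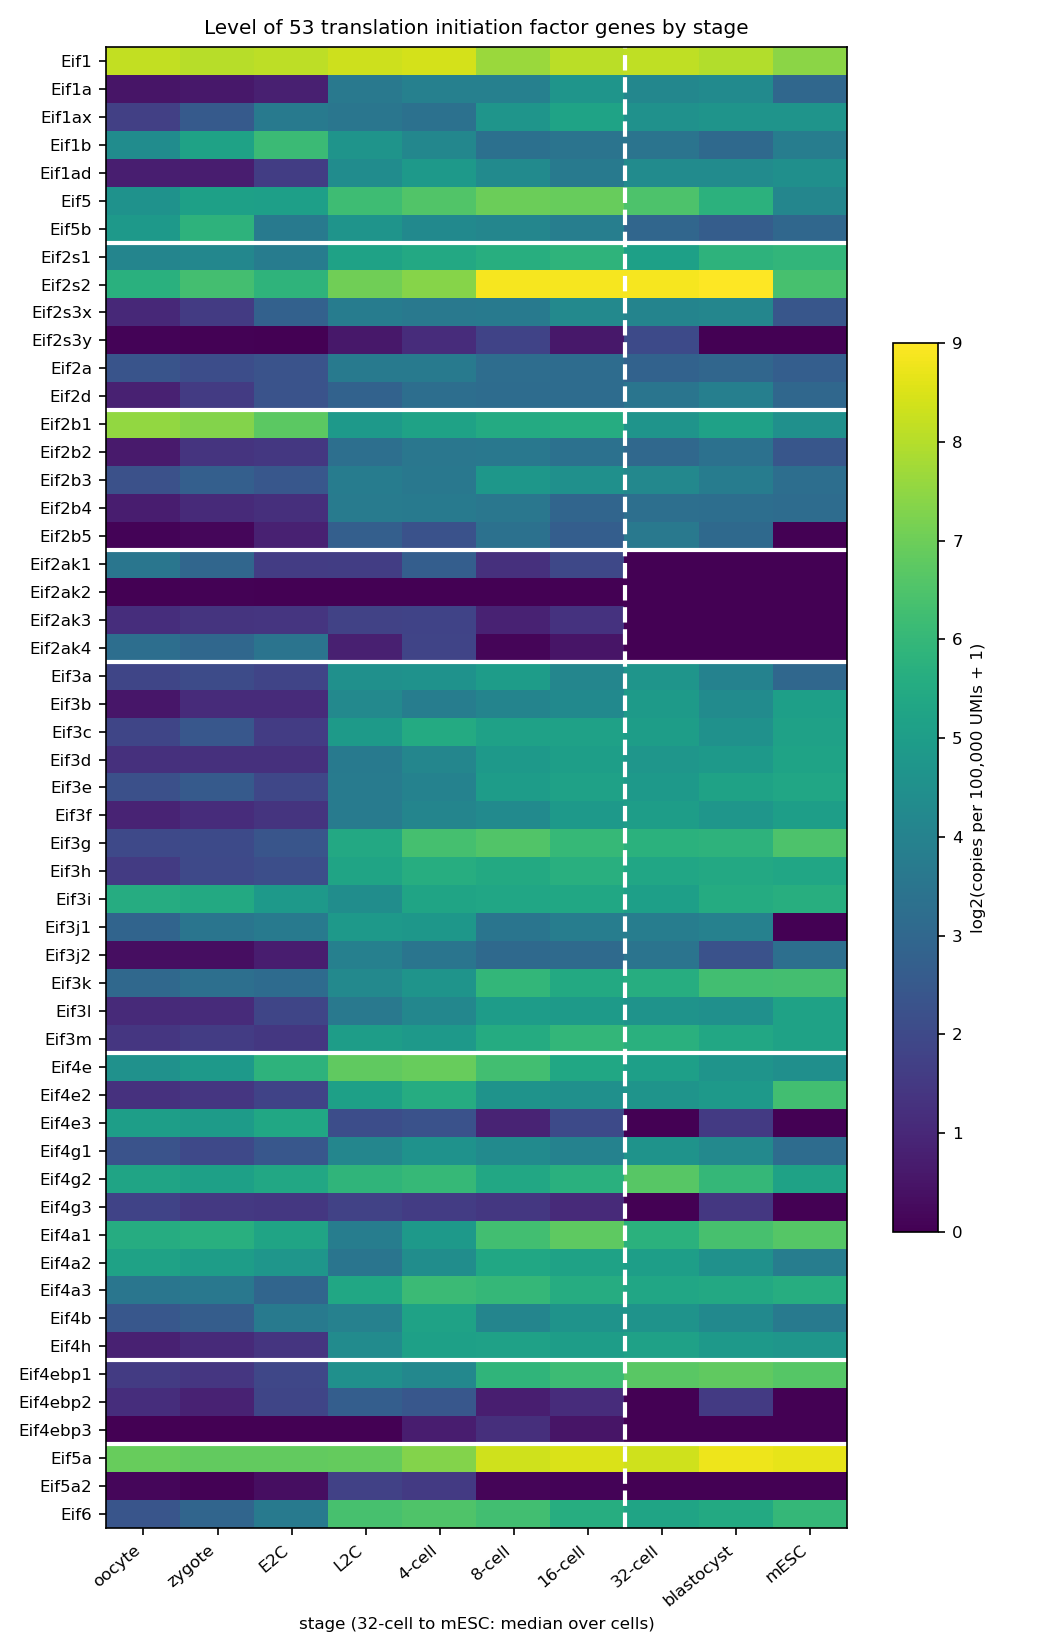
Level of each of the 53 genes (rows, ordered by role with white lines between roles) at each of the 10 stages (columns), as colour on a log2(copies per 100,000 UMIs + 1) scale; values from oocyte to 16-cell are means over embryos and the last 3 columns are medians over cells. Most eIF3 rows are dark up to E2C and bright from L2C on, while Eif2b1, Eif4e3 and Eif2ak4 run the other way.

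Differences between adjacent stages were tested with limma on log2(copies + 1) over embryos, for the 11682 genes with at least 1 copy in at least 4 embryos. All members except Eif2ak2 passed, which leaves 52. Eif2ak2 encodes the kinase PKR and was at 0 in 42 of the 43 oocytes, zygotes and embryos, with 0.257 copies in the remaining zygote. A gene was called where the log2 fold change was over 1 in size and the unadjusted p under 0.01, and p-values adjusted over all 11682 genes stand beside the calls. Fold changes are on the log2(copies + 1) scale, which understates changes of low genes.

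The early to late 2-cell step held the most calls on initiation factor genes. Of the 52, 31 were called higher in L2C and 6 lower, against 25.6% of all tested genes called higher and 22.8% called lower. The median log2 fold change of the 52 was 1.27 and that of all tested genes 0.03, and 42 of the 52 had a positive fold change. The 37 calls had limma adjusted p-values of at most 0.00956. Without L2C 2 the number of calls was 33. A pseudocount of 5 in place of 1 ended the calls on Eif2a, Eif2b2, Eif2b3, Eif2b5, Eif3j1, Eif3k and Eif5a2.

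Of the 14 eIF3 subunit genes 13 were called higher, with a median log2 fold change of 2.68. Their summed level was 72.2 ± 9.27 copies in E2C (n = 5) and 306 ± 72.9 in L2C (n = 6). Eif3m stood at 1.2, 1.24, 1.63, 4.27 and 0.543 copies in the 5 E2C embryos, and from 16.7 to 44.2 in L2C with a median of 30.6. Every L2C embryo was above every E2C embryo, and the log2 fold change was 3.65 ± 0.37 (SE, limma adjusted p = 9.91e-13). For Eif3g, an RNA-binding subunit, the E2C embryos held 5.99, 4.05, 1.97, 4.55 and 4.33 copies and the L2C embryos 22.3 to 75.1, with a median of 36.5, again without overlap. Its log2 fold change was 3.14 ± 0.39 (adjusted p = 5.28e-10).

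Eif3h was at 5.89, 2.84, 3.60, 2.48 and 2.72 copies in E2C and at 5.56 to 52 in L2C, with a median of 42.6. The groups met only through L2C 1, where the value is a single UMI, and the log2 fold change was 3.14 ± 0.37 (adjusted p = 1.09e-10). Eif3j2 was at 0 in 3 of the 5 E2C embryos and at 1.09 and 2.15 in the others, against 9.73 to 18.7 in L2C, with a median of 12.9. Its log2 fold change was 3.42 ± 0.37 (adjusted p = 6.20e-12). Eif3j1 and Eif3j2 are near-identical copies of the gene for the loosely bound j subunit, so the split of reads between them is uncertain.

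Most other subunits were called higher too. Eif3a, Eif3b and Eif3c went from means of 2.56, 1.14 and 2.04 copies to 21.6, 17.6 and 29.3, with log2 fold changes of 2.77, 3.13 and 3.14. Eif3d, Eif3e, Eif3f and Eif3l had log2 fold changes between 1.87 and 2.60. The smallest called changes were those of Eif3k, at 1.17, and Eif3j1, at 1.13, and both calls were lost under TMM and DESeq2 scaling, that on Eif3j1 also under edgeR. The call on Eif3k was lost without any 1 of E2C 1, E2C 2, L2C 2, L2C 3 and L2C 6. Eif3i was the exception. It had the highest level of the 14 subunits in oocytes (46.5 ± 7.12 copies, n = 10), and it held 22.5, 25.4, 21.9, 37.3 and 32.5 copies in E2C and 14 to 32.5 in L2C, with a median of 18.1. Its log2 fold change was -0.41 and was not called. Eif3i alone held 46.5 of the 79.8 copies of the summed level in oocytes, and 20.2 of 306 in L2C.

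**Figure D2:**
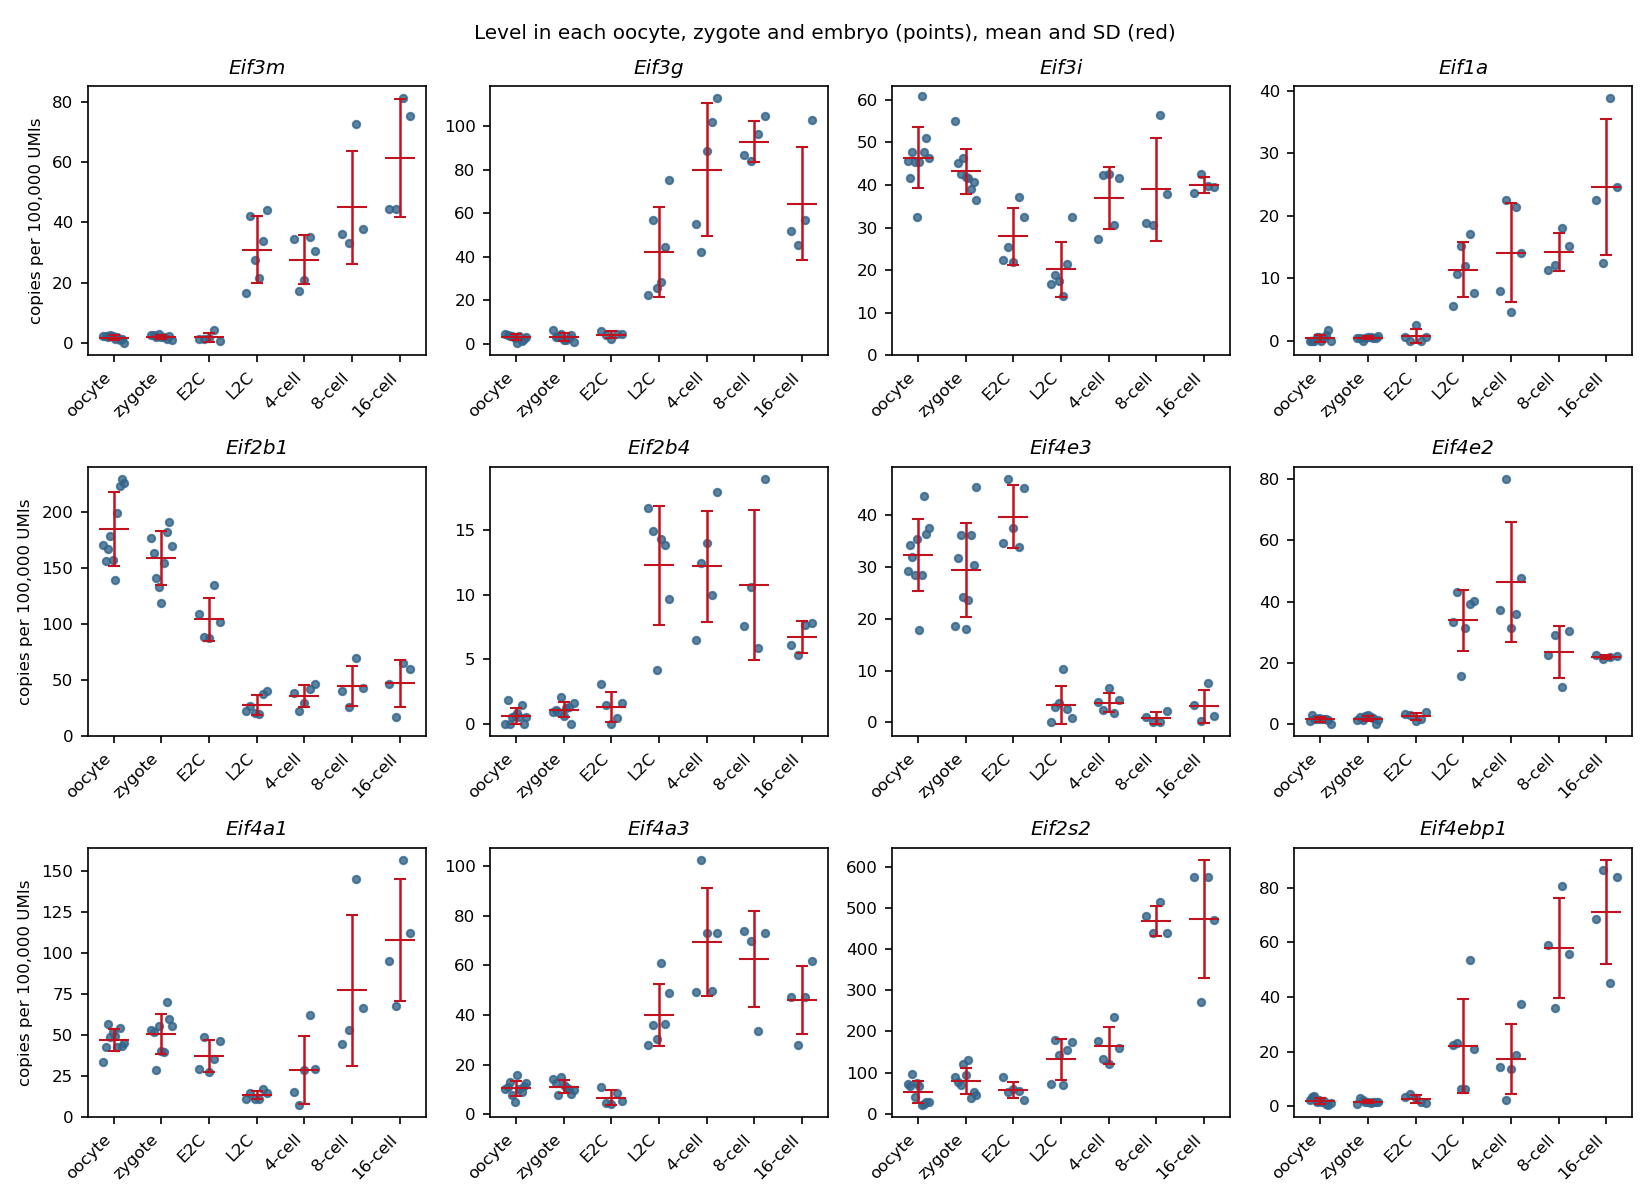
Levels of 12 initiation factor genes in each oocyte, zygote and embryo (blue points) from oocyte to 16-cell, with stage mean and SD in red. Axes are linear, start at 0 and give copies per 100,000 UMIs. Eif3m, Eif3g, Eif1a, Eif2b4, Eif4e2 and Eif4a3 sit near the axis until E2C and rise in L2C, Eif2b1 and Eif4e3 fall at the same step, and Eif2s2 stands highest at the 8-cell and 16-cell stages.

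The exchange factor eIF2B split within 1 complex. Eif2b1, the alpha subunit, was the most abundant member of the group in oocytes at 185 ± 32.7 copies and fell, while the other subunits rose from low levels. Eif2b1 stood at 108, 88.3, 87.1, 135 and 102 copies in E2C and at 19.8 to 40.3 in L2C, with a median of 24.7 and no overlap (log2 fold change -1.84 ± 0.28, limma adjusted p = 8.18e-08). Eif2b4, the delta subunit, was at 3.05, 1.42, 0, 0.483 and 1.63 copies in E2C and at 4.15 to 16.7 in L2C, with a median of 14.1 and no overlap (log2 fold change 2.54 ± 0.41, adjusted p = 3.76e-07). Eif2b5, the catalytic epsilon subunit, went from a mean of 0.767 to 5.55 copies, Eif2b2 from 1.78 to 8.84 and Eif2b3 from 4.44 to 12.6, with log2 fold changes of 2.02, 1.55 and 1.38. Each of these last 3 had overlapping embryos, and the call on Eif2b3 was lost without E2C 2, without L2C 2 and under DESeq2. The summed level of the complex was 112 ± 21.5 copies in E2C and 67.2 ± 11.6 in L2C.

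Promoter sequences of these genes were read from RefSeq (GRCm38.p6, 250 bases before to 50 after the gene's start), which held 52 promoters of 42 members. They are printed for Eif3m and Eif3g, as eIF3 subunits with large rises, and for Eif2b4 and Eif2b1, as subunits of 1 complex that moved in opposite directions. Capitals mark matches on either strand to CCGGAAG (an ETS core), GGGCGG (a GC box), CCAAT (bound by NF-Y), ATGGCGG (a YY1 core) or TATAAA (the core letters of the TATA element).
Eif3m, chr2:105016978-105017277, minus strand: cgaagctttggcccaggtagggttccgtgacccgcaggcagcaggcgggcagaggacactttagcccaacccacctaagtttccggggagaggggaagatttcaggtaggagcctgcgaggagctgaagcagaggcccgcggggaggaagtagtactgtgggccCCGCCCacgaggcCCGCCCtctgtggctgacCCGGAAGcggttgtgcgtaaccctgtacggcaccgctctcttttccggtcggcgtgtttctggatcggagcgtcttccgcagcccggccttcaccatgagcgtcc
Eif3g, chr9:20898541-20898840, minus strand: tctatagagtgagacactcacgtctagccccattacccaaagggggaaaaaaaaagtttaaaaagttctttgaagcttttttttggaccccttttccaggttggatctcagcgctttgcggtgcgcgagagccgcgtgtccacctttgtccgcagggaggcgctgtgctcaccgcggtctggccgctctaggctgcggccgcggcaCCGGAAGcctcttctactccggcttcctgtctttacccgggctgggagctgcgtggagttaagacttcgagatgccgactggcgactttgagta
Eif2b4, chr5:31193090-31193389, minus strand: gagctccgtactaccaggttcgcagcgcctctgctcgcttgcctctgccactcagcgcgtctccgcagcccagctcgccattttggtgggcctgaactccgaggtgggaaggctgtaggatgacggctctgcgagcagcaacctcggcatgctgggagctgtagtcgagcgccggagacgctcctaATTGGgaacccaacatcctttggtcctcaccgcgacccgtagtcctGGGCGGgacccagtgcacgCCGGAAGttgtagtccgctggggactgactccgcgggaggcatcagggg
Eif2b1, chr5:124579082-124579381, minus strand: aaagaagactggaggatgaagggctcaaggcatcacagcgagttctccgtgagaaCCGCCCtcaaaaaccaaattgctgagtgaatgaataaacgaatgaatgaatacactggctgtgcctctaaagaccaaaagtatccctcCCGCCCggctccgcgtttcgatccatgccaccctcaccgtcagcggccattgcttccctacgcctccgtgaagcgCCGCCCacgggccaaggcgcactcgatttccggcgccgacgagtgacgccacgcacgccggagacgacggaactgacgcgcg

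The 3 genes that rose each hold 1 ETS core match in these windows, and Eif2b1 holds 3 GC box matches and no match to the ETS core. The isoform of highest mean share begins at position -125 from the RefSeq start in Eif3m, -81 in Eif3g and -93 in Eif2b1, and at -294 in Eif2b4, which lies before the printed window. CCGGAAG or its complement is in 17 of the 52 member promoters (32.7%), in 5 of 10 eIF3 promoters, and in 8.86% of all 32851 promoters. GC boxes are in 36 of the 52 (35.7% of all promoters), CCAAT in 14 (37.4%), the YY1 core in 1 (4.05%) and TATAAA in 4 (13.6%). Most promoters in the RefSeq table belong to genes outside the tested set, and the tested genes give a closer background. Among tested genes with a promoter, the ETS core was in 27.8% of those called higher from E2C to L2C, 15.2% of those called lower and 20.3% of those not called. For members the counts were 10 of 24 higher, 1 of 5 lower and 4 of 12 not called. GC boxes were in 68.5%, 61.8% and 68.2% of the same groups of tested genes, and in 18, 5 and 9 of these members. CCAAT was in 41.9%, 45.1% and 44.7% (9, 1 and 4 members), the YY1 core in 12%, 7.21% and 9.55% (0, 0 and 1) and TATAAA in 7.98%, 11.4% and 8.39% (3, 0 and 1). A match is a description of the letters only.

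Among the start codon and joining factors, 3 of 7 were called higher in L2C and 1 lower. Eif1a, which encodes the eIF1A that scans with the small subunit, was at 0.547, 0, 2.58, 0 and 0.543 copies in E2C and at 5.56 to 17.1 in L2C, with a median of 11.3 and no overlap (log2 fold change 3.03 ± 0.39, limma adjusted p = 1.17e-09). Its near-identical X-linked copy Eif1ax had means of 11.8 and 10.5 copies and was not called, and the split of reads between the copies is uncertain. Eif1ad, named for an eIF1A-like domain, stood at 1.85, 1.95, 2.58, 2.55 and 1.63 copies in E2C and at 5.56 to 36.8 in L2C, with a median of 19.1 (log2 fold change 2.77 ± 0.41, adjusted p = 4.48e-08).

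Eif5, which stimulates GTP hydrolysis by eIF2, went from 34.9, 32.2, 31.9, 36.0 and 30.8 copies to 39.0 to 114, with a median of 58.7 (log2 fold change 1.15 ± 0.29, adjusted p = 0.000468). The groups did not overlap, although under TMM, edgeR and DESeq2 scaling and without L2C 2 the call was lost. Eif1b, a copy of Eif1, fell by 1.49 on the log2 scale, from a mean of 69.7 to 24.5 copies with overlap, a call lost without L2C 3. Eif1 itself held 246, 189, 265, 300 and 354 copies in E2C and 225 to 481 in L2C, with a median of 281, and was not called.

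Of the eIF2 group, 3 of 6 were called higher. Eif2s1, the alpha subunit that the kinases phosphorylate, stood at 13.1, 8.81, 13.3, 14.4 and 14.6 copies in E2C and at 16.7 to 49.7 in L2C, with a median of 37.4 and no overlap (log2 fold change 1.5 ± 0.31, limma adjusted p = 3.06e-05). Eif2s2, the beta subunit, went from a mean of 57.3 to 132 copies (log2 fold change 1.29) and Eif2a, a separate factor for non-canonical starts, from 3.97 to 11.7 (1.25), both with overlap. Under TMM and DESeq2 scaling both of these calls were lost, and that on Eif2s2 also under edgeR and without L2C 2. No kinase gene was called higher. Eif2ak4, which encodes the amino acid sensor GCN2, fell from 9.93, 10.1, 10.1, 5.65 and 14.6 copies in E2C to between 0 and 2.00 in L2C, with a median of 0.738 and no overlap (log2 fold change -2.65 ± 0.37, adjusted p = 1.04e-08). Eif2ak1 (HRI), at means of 2.04 and 2.08 copies (-0.08), and Eif2ak3 (PERK), at 1.63 and 2.39 (0.71), were not called, Eif2ak2 was not tested, and the sum of the 4 kinase genes was 13.7 ± 6.29 copies in E2C and 5.18 ± 1.77 in L2C.

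The cap-binding group changed its makeup, with 5 of 11 called higher and 3 lower. Eif4e3, a relative of the cap-binding protein, fell most, from 34.7, 47.0, 37.6, 33.9 and 45.3 copies in E2C to 0 to 10.3 in L2C, with a median of 2.76 and no overlap (log2 fold change -3.43 ± 0.39, limma adjusted p = 3.68e-11). Eif4e2, which encodes the cap-binding protein 4EHP, rose from 3.15, 3, 1.02, 1.52 and 3.78 copies to 15.8 to 43.0, with a median of 36.2 and no overlap (3.39 ± 0.37, adjusted p = 1.25e-11). Eif4e itself, the main cap-binding protein, was already at 45.2, 52.6, 61.7, 54.5 and 62.0 copies in E2C and reached 44.5 to 165 in L2C, with a median of 115 (1.08 ± 0.31, adjusted p = 0.00198), and this call was lost under TMM, edgeR and DESeq2 scaling and without L2C 5. So the 3 cap-binding genes held 39.7, 2.49 and 55.2 copies on average in E2C (Eif4e3, Eif4e2, Eif4e) and 3.39, 33.8 and 110 in L2C.

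The eIF4A helicase genes also parted. Eif4a1 and Eif4a2, the helicases of eIF4F, fell from means of 37.4 and 25.7 copies to 13.1 and 10.4, without overlap (log2 fold changes -1.34 and -1.38, limma adjusted p = 0.000212 and 1.92e-05). Eif4a3, the related helicase of the exon junction complex, rose from 10.9, 4.58, 4.07, 8.68 and 5.41 copies to 27.8 to 60.9, with a median of 36.1 (2.44 ± 0.32, adjusted p = 1.69e-09). Eif4h, a helicase cofactor, rose from 0.652, 1.05, 1.02, 2.62 and 2.70 copies to 14.8 to 27.8, with a median of 17.5 (2.95 ± 0.38, adjusted p = 1.90e-09). Eif4g1, the scaffold of the complex, went from a mean of 4.49 to 16.4 copies (1.82).

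Outside these groups Eif4ebp1, which encodes a protein that blocks eIF4E, went from 3.60, 4.42, 3.06, 1.58 and 1.09 copies to 6.31 to 53.6, with a median of 21.6 (log2 fold change 2.39 ± 0.40, limma adjusted p = 8.97e-07). Eif6, which keeps the ribosomal subunits apart, went from 13.2, 12.9, 4.62, 16.3 and 14 copies to 44.5 to 103, with a median of 86.3 (2.83 ± 0.34, adjusted p = 1.71e-10). Neither overlapped. Eif5a2 was called higher at a mean of 2.35 copies (1.48). Eif5a, its abundant relative, had means of 113 and 117 copies and was not called.

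**Figure D3:**
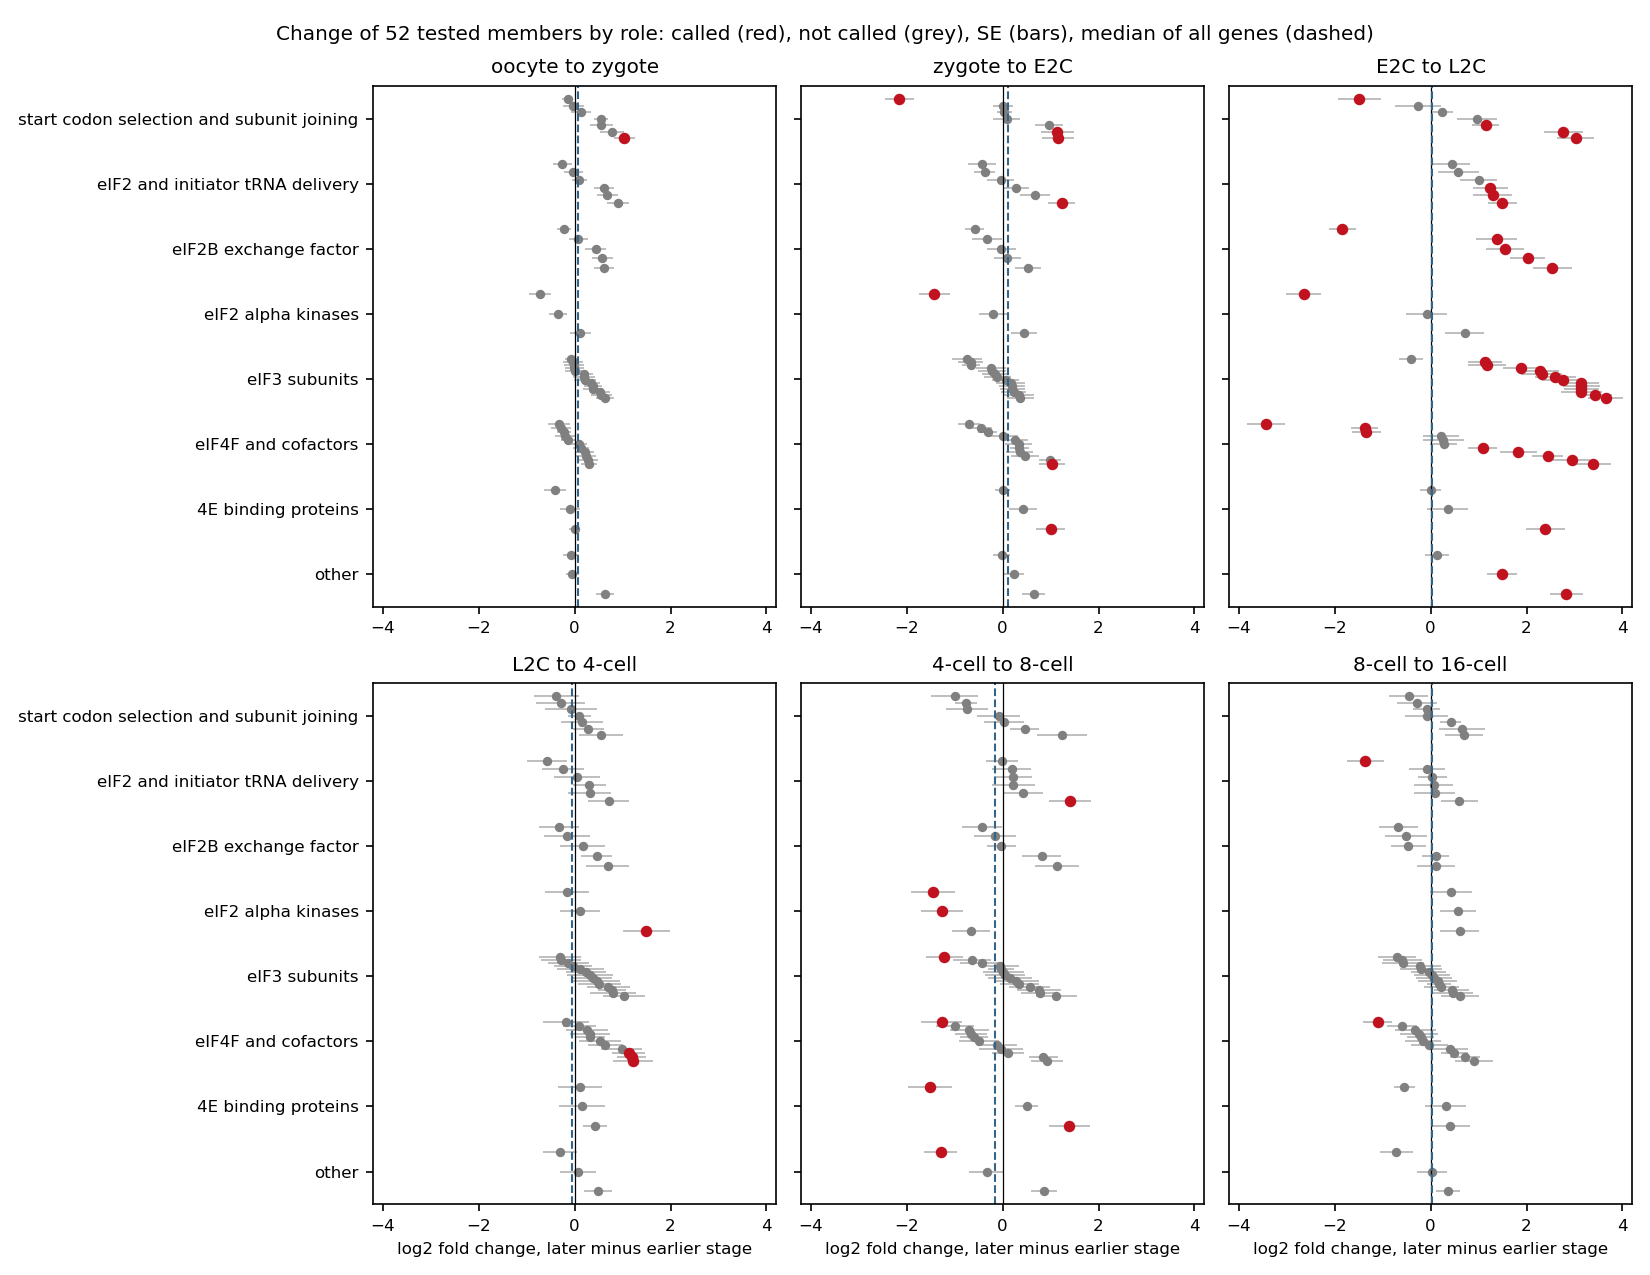
Log2 fold change of each of the 52 tested genes at each of the 6 comparisons of adjacent stages, grouped by role, on the log2(copies per 100,000 UMIs + 1) scale. Called genes are red, bars are standard errors and the dashed line is the median of all tested genes; the eIF3 points lie far above that line from E2C to L2C, except Eif3i.

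The steps from oocyte to zygote and from zygote to E2C each held fewer calls on these genes than that from E2C to L2C. From oocyte to zygote 1 of 52 was called higher and 0 lower, against 2.92% and 0.325% of all tested genes. The called gene was Eif5b, the GTPase of subunit joining, at 10.2 to 51.0 copies in oocytes (median 28.7) and 27.5 to 76.6 in zygotes (median 53.1), with a log2 fold change of 1.04 ± 0.22 (adjusted p = 0.000568). The spans overlap. Under edgeR and DESeq2 the log2 fold change was 0.98 and 0.92, short of the limit of 1, so the call was lost. It was also lost without any 1 of oocytes 7, 8, 9 and 10 and zygotes 3 and 6. Without oocyte 6 and zygotes 7 and 8, the 3 that were closer to the other stage, 4 members were called.

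From zygote to E2C 5 were called higher and 2 lower, against 4.52% and 2.75% of all tested genes. Eif5b then fell to 12.7, 11.3, 21.7, 5.58 and 9.72 copies in the E2C embryos, all below the lowest zygote (log2 fold change -2.15 ± 0.30, limma adjusted p = 4.08e-07). Eif2ak1 fell from a mean of 6.85 to 2.04 copies (-1.42 ± 0.32, adjusted p = 0.000912). Eif4b, a helicase cofactor, was higher, with 5.33 ± 1.74 copies in zygotes and 12.2 ± 3.46 in E2C and no overlap (1.03 ± 0.27, adjusted p = 0.00527). The others called higher were Eif2s3x (1.97 to 5.96 copies, 1.23), Eif1b (35.1 to 69.7, 1.16), Eif1ax (4.82 to 11.8, 1.14) and Eif4ebp2 (0.827 to 2.69, 1.0), each with overlap. The call was lost without 1 embryo for Eif1ax (E2C 1 or 3, zygote 7 or 9), Eif1b (E2C 4, zygote 7 or 8), Eif4b (E2C 2 or 3, zygote 7, 8 or 9) and Eif4ebp2 (E2C 1, 2 or 5, zygote 4, 5, 6 or 9, oocyte 7). Without zygote 9 there were 4 calls in all. With TMM scaling 1 was called higher and 2 lower, with edgeR 2 and 3, and with DESeq2 4 and 2.

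Each step after the late 2-cell stage held fewer calls on these genes than the step from E2C to L2C. From L2C to the 4-cell stage 4 were called higher and 0 lower, against 2.41% and 4.28% of all tested genes. Eif4a2 had a limma adjusted p under 0.05 (10.4 ± 3.65 to 20.4 ± 5.25 copies, log2 fold change 1.19 ± 0.31, adjusted p = 0.0199). Eif4a1 (13.1 to 28.6 copies), Eif4b (14.7 to 35.2) and Eif2ak1 (2.08 to 5.47) had adjusted p-values from 0.0617 to 0.0970 and each lost its call without 4-cell 5, Eif4a1 and Eif4b also without 4-cell 4, and Eif4b and Eif2ak1 also without L2C 2 or L2C 6. The call on Eif4a2 was lost without L2C 2. Eif4a1 and Eif4a2 are the helicase genes that had fallen into L2C.

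From the 4-cell to the 8-cell stage 2 were called higher and 6 lower, against 4.47% and 10.5% of all tested genes, and this split depends on the scaling: with TMM 10 were called higher and 3 lower, with edgeR 10 and 1, and with DESeq2 10 and 2. Eif2s2 stood apart. It held 176, 134, 121, 236 and 159 copies in the 4-cell embryos and 481, 441, 516 and 440 in the 8-cell embryos, without overlap (log2 fold change 1.40 ± 0.43, limma adjusted p = 0.0180). The 16-cell embryos held 576, 271, 576 and 472 copies, and the blastocyst cells 242 to 719 with a median of 539, but the mESC cells 61.6 to 284 with a median of 81.8. Eif4ebp1 was higher as well, at 14.3, 2.45, 13.5, 18.7 and 37.3 copies and then 59.1, 35.9, 80.5 and 55.6 (1.39 ± 0.43, adjusted p = 0.0192), with 1 4-cell embryo inside the 8-cell span.

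The 6 lower genes at this step were Eif4ebp2 (log2 fold change -1.52), Eif2ak1 (-1.45), Eif5a2 (-1.29), Eif4e3 (-1.27), Eif2ak3 (-1.27) and Eif3j1 (-1.22). Eif3j1 held 26.3 ± 9.08 copies in the 4-cell and 10.4 ± 2.06 in the 8-cell stage, without overlap. The other 5 had 8-cell means of at most 1.38 copies. The call was lost without 1 embryo for Eif2ak1 (4-cell 5 or 8-cell 4), Eif2ak3 (4-cell 1, 8-cell 2 or 8-cell 4), Eif3j1 (4-cell 5), Eif4e3 (4-cell 3 or 5, 8-cell 1 or 2) and Eif5a2 (4-cell 5). Under TMM and edgeR scaling the calls on Eif2ak1, Eif4e3 and Eif3j1 were lost, the first 2 of them also under DESeq2.

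From the 8-cell to the 16-cell stage 0 were called higher and 2 lower, against 1.9% and 1.46% of all tested genes. Eif4e stood at 76.0, 83.8, 63.1 and 83.2 copies in the 8-cell and 41.5, 14.7, 46.2 and 58.5 in the 16-cell embryos, without overlap (log2 fold change -1.11 ± 0.31, limma adjusted p = 0.0469). The call was lost without 16-cell 2 and under edgeR. Eif4e thus reached its highest mean, 120 copies, in the 4-cell stage, and its median was 32.7 copies in 32-cell, 24.5 in blastocyst and 21.5 in mESC cells. Eif2s3y, the Y-linked copy of the gamma subunit, was called lower (-1.36, adjusted p = 0.0491), and the call was lost without 8-cell 1, 8-cell 2, 16-cell 1 or 16-cell 2. Apart from 0.514 copies in 1 oocyte and 0.302 in 1 zygote, it was found at 2.96 copies in L2C 2, 4.73 and 1.22 in 4-cell 4 and 5, 5.04 and 4.95 in 8-cell 1 and 2, and 1.96 in 16-cell 4. Ddx3y, also on the Y chromosome, was found in 5 of those 6 embryos as well, at 0.570 to 4.00 copies. It was also found where Eif2s3y was at 0, with 0.736 copies in L2C 6, 0.111 in 16-cell 2 and 0.417 in oocyte 6. In the 5 mESC cells Eif2s3y ran from 0 to 12 copies, with 3 cells at 0.

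Isoforms were described by their share of the gene's isoform value in each embryo. Start and stop codons are those of the gene's principal coding transcript. An isoform that matches another annotated transcript can therefore count as lacking them. Of the 770 isoforms, 483 (62.7%) were incomplete and 176 (22.9%) full splice matches, 59 joined known splice sites anew and 52 used a splice site that is not annotated. The level test covered 430 member isoforms of 47 genes and called 172 of them, from 41 genes, at 1 or more steps. From oocyte to zygote 6 were higher and 0 lower (1.16% and 0.32% of all 29409 tested isoforms), from zygote to E2C 10 and 14 (2.23% and 2.94%). Between E2C and L2C they were 86 and 28 (12.9% and 13.1%). From L2C to the 4-cell stage 15 were higher and 6 lower (2.61% and 1.68%), from there to the 8-cell stage 35 and 7 (3.63% and 4.3%), and to the 16-cell stage 6 and 7 (1.05% and 0.921%).

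A switch was called where the shares of a gene's isoforms changed at the gene level (adjusted p under 0.01) and for 1 isoform or more (adjusted p under 0.05), by limma on arcsine shares. From oocyte to zygote 2 of 43 members were called (0.476% of all tested genes), and from zygote to E2C 4 of 41 (3.02%). At the next steps it was 4 of 42 between E2C and L2C (12.2%) and 1 of 45 into the 4-cell stage (1.78%). From the 4-cell to the 8-cell stage and from there to the 16-cell stage 0 of 43 were called by limma (2.93% and 0.957% of all tested genes).

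Eif2s2 was called at the steps from oocyte to L2C, from oocyte to zygote only through PB.44682.308 at shares of 0.116% and 0.856%. Its full isoform PB.44682.41 (chr2:154872347-154893390, minus strand, mm10, 9 exons, start and stop codon) held 29.9% ± 12.8 of the gene in zygotes (n = 9), 52.8% ± 9.96 in E2C (n = 5) and 80.2% ± 10.9 in L2C (n = 6). In oocytes and zygotes 2 short isoforms took much of the rest. They hold the start codon and end before the stop codon of the principal transcript. PB.44682.304 is classed as a full splice match, that is, to a shorter annotated transcript. PB.44682.293 (chr2:154884325-154893016, 4 exons) went from 29.5% ± 10.4 in zygotes to 1.81% ± 2.20 in E2C, and PB.44682.304 (chr2:154887710-154893332, 3 exons) from 21.1% ± 6.51 to 1.33% ± 1.90 (isoform adjusted p = 2.96e-05 and 0.000151, limma). A further isoform with the whole reading frame, PB.44682.255 (chr2:154872448-154893013, 9 exons), peaked in E2C, at 7.36% ± 2.23, 26.5% ± 2.70 and 1.44% ± 1.42 in zygotes, E2C and L2C (adjusted p = 0.00190 and 1.08e-05).

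**Figure D4:**
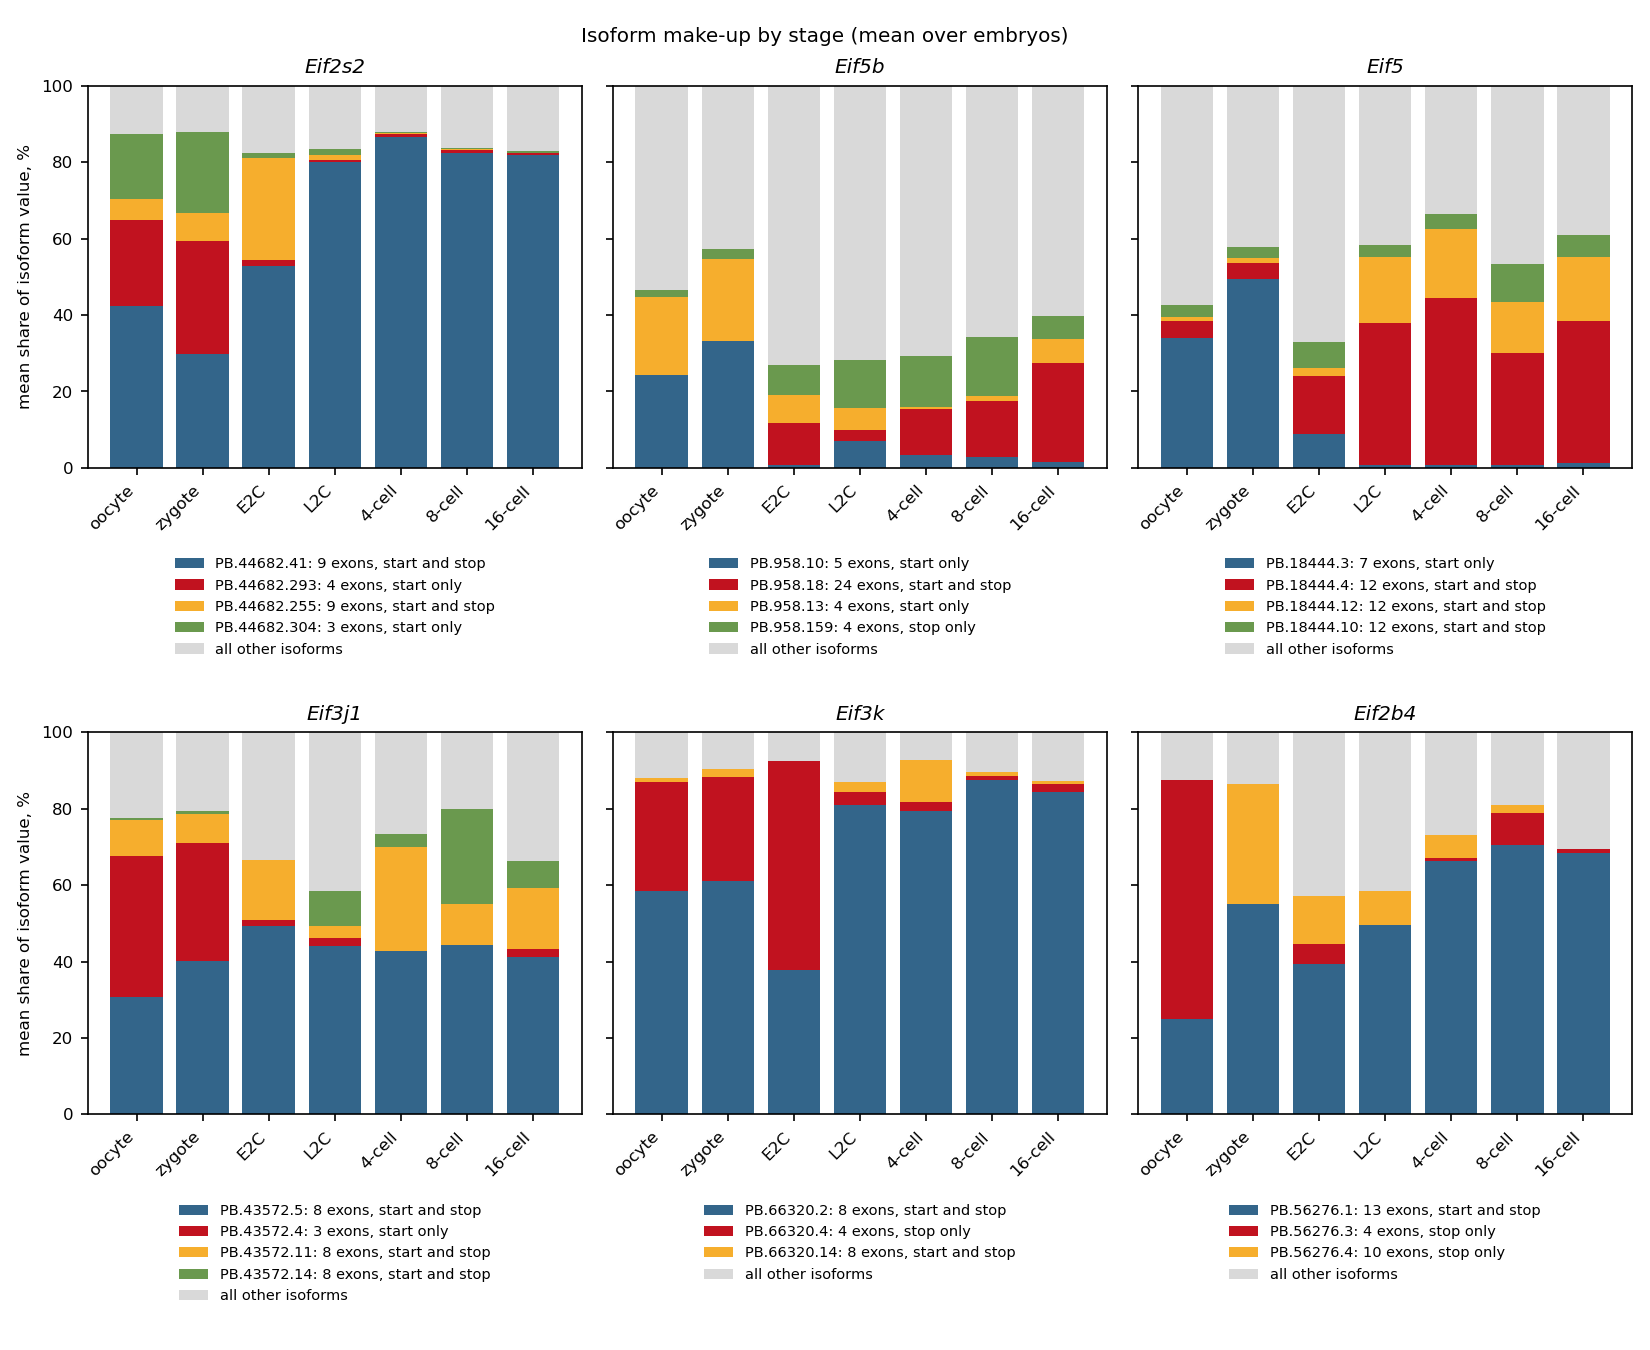
Mean share of the gene's isoform value over embryos, in percent, for leading isoforms of Eif2s2, Eif5b, Eif5, Eif3j1, Eif3k and Eif2b4 (1 panel each). Bars are stacked for each stage from oocyte to 16-cell, with all other isoforms in grey. In the first 4 panels short isoforms without the stop codon hold large shares in oocytes and zygotes and smaller ones from E2C or L2C on.

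Eif5b switched from zygote to E2C. PB.958.10 (chr1:37997936-38021812, plus strand, 5 exons) and PB.958.8 (chr1:37997883-38019134, 4 exons), both with the start and without the stop codon, went from 33.2% ± 7.98 and 9.05% ± 4.77 of the gene in zygotes to 0.7% ± 1.57 and 0% in E2C (isoform adjusted p = 3.55e-05 and 0.0133, limma). The 24-exon isoform PB.958.18, with both codons, was at 0% in all oocytes and zygotes, at 14.9% and 40.2% in E2C 4 and 5 and at 0% in the other 3 E2C embryos, with a mean of 2.90% in L2C. Its level was not called (limma adjusted p = 0.547 from zygote to E2C). The mean level of PB.958.10 was 17.5 copies in zygotes and 0.146 in E2C, and that of PB.958.8 was 4.44 and 0.

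Switches were also called in 6 other members. The isoforms named here for Eif3k, Eif3h, Eif3a and Eif2b4, other than PB.66320.2, lack the start codon. Whether incomplete reverse transcription had a part in them was not tested. For Eif3k, the 4-exon PB.66320.4 (chr7:28971369-28975317, minus strand), which lacks the start codon, held 54.8% ± 16.3 in E2C and 3.28% ± 3.86 in L2C, and the full PB.66320.2 (chr7:28971363-28981951, 8 exons) 37.7% ± 22.4 and 81.1% ± 17.1 (adjusted p = 0.00236 and 0.0440). For Eif3h, the 3-exon PB.26520.10 went from 1.01% in zygotes to 18.2% ± 19.1 in E2C, and for Eif4g2, the 2-exon PB.68791.217 from 9.02% ± 3.97 in E2C to 0% in all L2C embryos. For Eif1, PB.13834.48 was called at both 2-cell steps at shares of at most 0.397%. For Eif3a, PB.39964.36 and PB.39964.40 appeared at 4.17% and 5.74% in the 4-cell stage. For Eif2b4, PB.56276.3 held 62.5% ± 47.9 over the 4 oocytes that had any isoform signal, at a mean level of 0.201 copies over all 10.

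Eif1 also carried a slower change in its 3′ end that was not called as a switch. PB.13834.2 (chr11:100319847-100322101, plus strand), with the longest 3′ end of the leading isoforms, held 20.9% ± 3.87 in oocytes, 18.9% ± 6.06 in zygotes, 12.2% ± 3.69 in E2C, 7.40% ± 1.90 in L2C and 5.58% ± 2.45 in the 8-cell stage. Over the same stages PB.13834.24, whose 3′ end is at 100321541, held 2.04% ± 0.754, 3.38% ± 1.92, 5.86% ± 1.66, 12.7% ± 6.18 and 9.02% ± 6.83. The main isoform PB.13834.1 stayed between 72.1% and 78.3%.

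The share of a gene held by isoforms that span both the start and the stop codon was taken as a summary. For Eif3a, Eif3b and Eif2ak4 it was 0% in oocytes, where their stop codon share was 100%. The paper proposes that some transcripts without the start codon come from incomplete reverse transcription. Whether this or transcript length had a part in these shares was not tested. Over members with a value in 3 or more embryos of a stage, the median share was 68.8% in oocytes (43 members), 57.9% in E2C (43) and 78.3% in the 4-cell stage (45). At an adjusted p under 0.05 (limma), 1 of 38 members was higher from zygote to E2C, Eif2s2 at 38.8% and 83.3% (adjusted p = 0.00175). From E2C to L2C 1 of 38 was higher, Eif3k at 37.7% and 86.1% (0.0273), and from L2C to the 4-cell stage 1 of 41, Eif3a at 2.62% and 11.9% (0.0159). At the other 3 steps 0 of 40 each were called by limma. Over all tested genes the called shares were 0.374%, 0.537%, 3.92%, 3.01%, 0.463% and 0.194% for the 6 steps in order.

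The stop codon alone separated zygotes from E2C more sharply, and the genes named for it were chosen after their values were seen. Of 18 members tested, 7 had a higher share of isoforms with the stop codon in E2C than in zygotes, against 19.1% of all tested genes, and 0 had a lower one. At the other steps 0 members were called (limma, 20, 17, 20, 20 and 20 tested), against 3.22%, 18.3%, 1.38%, 1.24% and 0.475% of all tested genes. The change rested on few genes, since the median member had a stop codon share of 100% at every stage and 7 of 43 were under 90% in zygotes. Of these low genes, Eif5, Eif5b, Eif2s2 and Eif3j1 were called, and Eif2d and Eif2b3 were not. Eif2ak3, at 0% in every embryo with a value, was not tested.

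For Eif2s2 the stop codon share was 22.3% to 74.8% in zygotes (median 41.7%) and 97.8%, 89.5%, 90.3%, 100% and 98.1% in the E2C embryos (limma adjusted p = 3.67e-08). For Eif5 it was 24.0% to 81.8% in zygotes (median 37.5%) and 100%, 100%, 86.4%, 92.9% and 69.8% in E2C (adjusted p = 1.37e-05). For Eif5b it was 0.833% to 47.5% (median 18.6%) and 86.9%, 85.7%, 77.7%, 70.2% and 90.0% (adjusted p = 3.98e-06). Zygotes and E2C did not overlap for Eif2s2 and Eif5b, and for Eif5 1 E2C embryo lay inside the zygote span.

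Eif3j1 went from 62.2% ± 17.5 to 98.6% ± 3.05 (adjusted p = 0.000201, limma), while Eif1b, Eif4a1 and Eif1 were called on shares of 94.1%, 98.2% and 99.8% that became 99.6%, 100% and 100%. Zygote 7, which resembled the oocytes over all genes, had the highest zygote share for Eif2s2, Eif5 and Eif5b. Zygote 8, which did so too, was at 38.8%, 37.5% and 16.7%, at or below the zygote medians, and oocyte 6, which resembled the zygotes, was at 61.4%, 71.4% and 40.7%. Oocytes had means of 56.6%, 57.8% and 28.7% for these 3 genes, above the zygote means of 43.9%, 43.4% and 19.5%, and the difference was not called (adjusted p from 0.227 to 0.521).

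**Figure D5:**
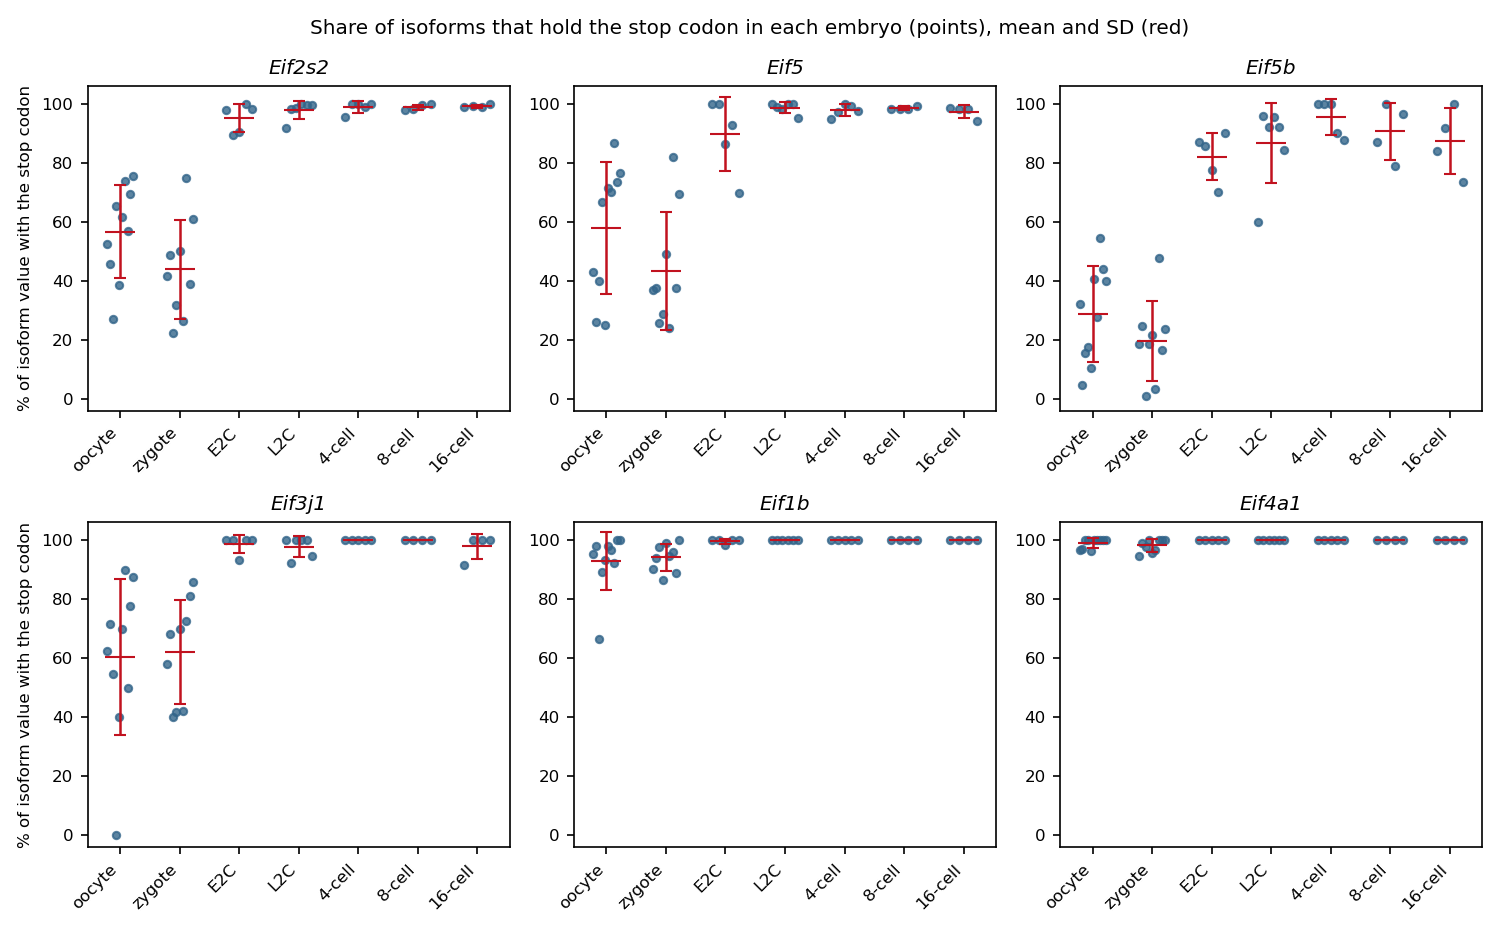
Share of each gene's isoform value in isoforms that hold the annotated stop codon, in percent, for Eif2s2, Eif5, Eif5b, Eif3j1, Eif1b and Eif4a1 in each oocyte, zygote and embryo (points) from oocyte to 16-cell, with the stage mean and SD. Shares of Eif2s2, Eif5 and Eif5b spread widely below 90% in oocytes and zygotes and lie mostly above 80% from E2C on.

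Of the 45 member isoforms with the start and without the stop codon, 27 end inside an exon of the principal coding transcript. PB.958.10, the leading short isoform of Eif5b in zygotes, ends outside its exons, and no sequence is printed for it. The sequence around 7 of the other ends was read from the GENCODE M21 transcript (GRCm38), and is printed to show what follows it: 20 bases up to the isoform's last base in lower case, then the next 20 transcript bases in capitals.
Eif5 PB.18444.3, ends at 111541727 on chromosome 12, exon 6: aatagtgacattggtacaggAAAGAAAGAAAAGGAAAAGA
Eif3j1 PB.43572.4, ends at 122041203 on chromosome 2, exon 3: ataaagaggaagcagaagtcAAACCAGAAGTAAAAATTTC
Eif5b PB.958.13, ends at 38019534 on chromosome 1, exon 4: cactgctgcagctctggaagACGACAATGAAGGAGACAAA
Eif5b PB.958.8, ends at 38019134 on chromosome 1, exon 4: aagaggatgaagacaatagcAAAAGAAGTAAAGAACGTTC
Eif2s2 PB.44682.293, ends at 154884325 on chromosome 2, exon 4: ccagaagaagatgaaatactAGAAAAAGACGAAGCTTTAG
Eif2s2 PB.44682.304, ends at 154887710 on chromosome 2, exon 3: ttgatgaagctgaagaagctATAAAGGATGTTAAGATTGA
Eif1b PB.78505.8, ends at 120494264 on chromosome 9, exon 2: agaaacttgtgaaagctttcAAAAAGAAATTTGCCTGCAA

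The 20 bases after the end hold 15, 11, 11, 11, 10, 9 and 10 A in this order. PB.44682.308 of Eif2s2, a further named isoform of this kind, is not printed and has 8 A there. Of the 27 isoforms, 26 have 20 bases to follow, and those bases hold a median of 10.5 A, with 6 of the 26 (23.1%) at 12 A or more. For the 116 member isoforms with both codons the median was 4 A, and 1 of them (0.862%) reached 12. Over all genes of the table the medians were 10 A (1649 isoforms) and 5 A (9776 isoforms), with 21.2% and 2.20% at 12 A or more. The first kind of end lies in coding sequence and the second mostly after it, and the base makeup of the places differs too. Reverse transcription was primed with oligo-dT, which binds A runs. Whether priming inside the transcripts had a part in the short isoforms or in their loss after the zygote stage was not tested.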

How the data were processed

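Single cells were read by HIT-scISOseq, in which full-length cDNA with 10x barcodes and UMIs is sequenced as PacBio HiFi reads. The series holds 4 runs, more than the batches the paper lists for these cells. The authors extracted consensus reads, assigned barcodes and UMIs, aligned to mm10 with minimap2, collapsed isoforms, classed them with SQANTI3 and removed isoforms found in few cells. The deposited gene and isoform values are CPM divided by 10, that is, UMIs per 100,000 UMIs of a cell, and 100% of them in each cell were whole multiples of 1 UMI within 0.1. The deposited isoform models gave coordinates. A separate table of split oocytes was not used here.

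Cells were averaged per oocyte, zygote or embryo (121 cells, 43 in all). Nothing says that embryos came from separate females, so p-values measure the spread between embryos. limma 3.58.1 in R 4.3.3 (trend, array weights, two-sided, Benjamini-Hochberg adjustment) fitted 7 stages in 1 model of log2(value + 1). Start and stop codons came from the principal coding transcript of each gene in GENCODE M21 (GRCm38). The count test, edgeR 4.0.16 on the recovered UMIs, called 2166 of 6234 genes higher and 1921 lower from E2C to L2C, and DESeq2 1.42.0 was run beside it. The limma fits of gene and isoform levels, switches and start-to-stop shares and the edgeR gene fit were tested on simulated data. DESeq2 was not. For the start-to-stop share the leading isoform of each gene stood in there for isoforms with both codons.

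The members, roles and lists were chosen with earlier results of these data known. At each comparison up to 30 called members were named in order of p. Eif1b, Eif2a, Eif2s2, Eif2b3, Eif3j1, Eif3k and Eif4e exceeded that number from E2C to L2C and were named there after their values were seen, as were the genes of the stop codon share and the look at 3′ ends. Isoforms were named for up to 8 members with the smallest switch p. Proteins like eIF1A were not analysed here.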

Additional observations from a re-analysis of the deposited data

Results flagged for a closer look

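Among 142 stage groups of named members with 4 to 10 embryos and a mean of at least 5 copies, 10 held 1 embryo that lay far from the others, and chance flags about 1 group in 20. Eif1 stood at 462.6 copies in 4-cell 3, against 286.8 to 326.4 in the other 4-cell embryos. Eif2s1 was at 24.2 copies in oocyte 6 (others 13.5 to 17.2) and at 8.81 in E2C 2 (others 13.1 to 14.6). Eif2ak1 held 9.85 copies in 4-cell 5 (others 3.23 to 4.90), the embryo without which its calls on either side of the 4-cell stage were lost. Eif4ebp1 held 53.6 copies in L2C 5 (others 6.31 to 23.2).

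In the 8-cell stage Eif2d was at 15.4 copies in 8-cell 2 (others 4.76 to 6.2). Eif3m was at 72.8 copies (others 33.0 to 37.9) and Eif4a3 at 33.4 (others 69.6 to 73.9) in 8-cell 3, the 8-cell embryo with the fewest UMIs (43857). In the 16-cell stage Eif3j2 was at 6.63 copies in 16-cell 1 (others 7.94 to 8.14) and Eif4h at 52.1 in 16-cell 4 (others 22.2 to 27.3).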

How the results depend on the processing

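Of 403 recomputed counts, 359 stayed within 1.5 times the reported count and 44 did not. Of the 59 named gene changes, none reversed in 3233 recomputations, 140 of which lost the call, and 29 changes were called in all of theirs. Leaving out each of the 43 oocytes, zygotes and embryos in turn (oocytes, zygotes and L2C embryos were added after seeing the data) gave 0 to 2 calls from oocyte to zygote, 4 to 8 from zygote to E2C, 33 to 38 from E2C to L2C, 1 to 4 from L2C to the 4-cell stage, 6 to 10 from there to the 8-cell stage and 1 to 3 to the 16-cell stage. Leaving out each of the 18 E2C, 4-cell, 8-cell and 16-cell embryos gave 157 to 185 isoforms, 5 to 10 switch genes and 2 to 5 start-to-stop genes. The call from oocyte to zygote was lost without oocyte 7, 8, 9 or 10 or zygote 3 or 6, and 2 were made without zygote 9. The low counts were 4 from zygote to E2C without zygote 9, 2 from L2C to the 4-cell stage without 4-cell 4 and 1 without 4-cell 5 or L2C 2, 1 from the 8-cell to the 16-cell stage without 16-cell 1, 16-cell 2 or 8-cell 2 (without 16-cell 2 a different gene, higher), and 5 switch genes without E2C 1 or E2C 3. Start-to-stop genes were 5 without 16-cell 3 or E2C 5.

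From oocyte to zygote DESeq2 and a pseudocount of 5 gave 0 calls, TMM scaling and a pseudocount of 0.5 gave 2, and an adjusted p under 0.05 alone gave 10. From zygote to E2C TMM gave 3, a pseudocount of 5 gave 2 and the adjusted p 12. The share of all tested genes under the adjusted p alone was not counted. Without oocyte 6, zygote 7 and zygote 8, an alternative chosen after seeing the data, both comparisons gave 4. From L2C to the 4-cell stage there were 2 calls without array weights, 1 with a pseudocount of 5 and 1 by the adjusted p. From the 4-cell to the 8-cell stage TMM gave 13, no array weights 14 (9 higher, 5 lower) and a pseudocount of 5 gave 3. From the 8-cell to the 16-cell stage DESeq2, a filter of 5, no array weights and no filter each gave 1, and edgeR and a pseudocount of 5 gave 0. Isoforms were 54 with edgeR (74 tested), 80 with a filter of 5 and 44 with a pseudocount of 5. The stop codon alone gave 7 genes. The cause was not tested except where fewer isoforms were tested.

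TMM moved the median of all genes by -0.11, -0.17 and 0.16 on the log2 scale from zygote to E2C, E2C to L2C and 4-cell to 8-cell, edgeR by 0.10 and 0.18 from E2C to L2C and 8-cell to 16-cell, and DESeq2 by -0.20 from E2C to L2C, where members were called 25 higher and 6 lower (TMM), 26 and 6 (edgeR) and 23 and 7 (DESeq2). Depth limits genes of few copies, most in L2C 1 and 4-cell 2.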

Other observations

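Other genes of translation were described from a list of 41, of which 40 were tested in the same limma fit. From E2C to L2C 23 were called higher and 5 lower, against 25.6% and 22.8% of all tested genes. Their median log2 fold change was 1.44. Pabpc1, the poly(A)-binding protein, went from a mean of 1.69 to 38.4 copies (log2 fold change 3.87), Larp1, which binds mRNAs of ribosomal proteins, from 0.4 to 13.7 (3.5), and Ncbp1, of the nuclear cap-binding complex, from 0.622 to 13.2 (3.09). Denr, of ribosome recycling, went from 5.13 to 45.1 (2.95) and the release factor Etf1 from 9.59 to 52.7 (2.44). Those called lower were Eef2k, the kinase of elongation factor 2 (35.9 to 3.56 copies), Paip1 (45.1 to 3.69), Gspt2 (3.88 to 0.132), the helicase Ddx3x (84.7 to 28.1) and Paip2b (49.3 to 24.7).

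Eef2k and Paip2b had been called higher at both earlier steps, from 4.83 to 15.4 and then 35.9 copies for Eef2k and from 8.95 to 19.6 and then 49.3 for Paip2b. Mknk1, a kinase of eIF4E, was called lower at both, from 22.3 to 12 and then 1.74 copies. From the 4-cell to the 8-cell stage 5 were called higher and 5 lower, against 4.47% and 10.5% of all tested genes. The elongation factor genes Eef1a1 (64.7 to 221 copies), Eef1g (28.5 to 84.6) and Eef1b2 (15.1 to 64.1) were among the higher ones. The counts from oocyte to zygote were 3 higher and 1 lower (2.92% and 0.325% of all tested genes). They were 6 and 2 from zygote to E2C (4.52% and 2.75%). Into the 4-cell stage they were 1 and 3 (2.41% and 4.28%), and from the 8-cell to the 16-cell stage 0 and 0 (1.9% and 1.46%).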
